A study of Homo sapiens with 4 samples.

Results

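The 10 genes described here are the core of the NF-kB pathway and of its noncanonical branch: the kinase gene MAP3K14, the adapters TRAF2 and TRAF3, the ubiquitin ligases BIRC2 and BIRC3, the transcription factor subunits NFKB1, NFKB2 and RELB, and the feedback inhibitors NFKBIA and TNFAIP3. They were taken by symbol from a table of 32973 genes, and all 10 were present. The set was chosen on measured values of these same libraries, namely a lower level of BIRC3 in UMUC3 cells with BCUC-1 and a higher level of MAP3K14 with BCUC-1 in both cell lines. Every comparison of BCUC-1 with vector is therefore given below as a description, with no test. The contrast of T24T with UMUC3 was not used in that choice and was tested.

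RNA sequencing measured transcript levels in 2 established human bladder cancer cell lines, T24T, a derivative of the T24 line, and UMUC3. The 4 groups were T24T with a BCUC-1 plasmid, T24T with empty vector, UMUC3 with the BCUC-1 plasmid and UMUC3 with empty vector, and each held 1 library. BCUC-1 is the circular RNA hsa_circ_0001361, a product of the gene FNDC3B, and the study looked for genes downstream of it. All cells were stable transfectants grown in medium with serum, and whether each was a clone or a pool is not given in the sources used here. With 1 library per group, a difference between BCUC-1 and vector within a line has no replicate check and compares those libraries. The libraries held 22730112 to 26497894 assigned reads. Of the epithelial markers, KRT8, KRT18 and KRT7 were at 2.99 to 146 RPKM (reads per 1000 bases of transcript and 1000000 assigned reads), while KRT5, KRT19, EPCAM and CDH1 were at or below 0.219 RPKM in every library. The summed fibroblast and endothelial markers stayed at or below 0.502 and 0.086 RPKM. Of the leukocyte markers reported here, CD14 was at or below 0.14 RPKM and CD68, a lysosomal protein, stood at 6.78 and 7.45 RPKM in T24T and at 124 and 119 RPKM in UMUC3.

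NF-kB is a family of dimeric transcription factors that cells hold inactive until a receptor signals. In the canonical branch, an IkB kinase complex marks IkB proteins such as NFKBIA for destruction and frees dimers that contain NFKB1 and RELA. In the noncanonical branch, the kinase MAP3K14, also called NIK, accumulates and drives processing of the NFKB2 precursor, whose product pairs with RELB. In resting cells TRAF3 recruits MAP3K14 to a complex of TRAF2 with BIRC2 or BIRC3, which ubiquitinates the kinase for degradation. NFKBIA, TNFAIP3, NFKB2, RELB and BIRC3 are themselves known NF-kB target genes, so that the pathway holds its own feedback. These steps act on proteins, and the present data hold transcripts only.

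The sequence before the start site is shown for 5 of the genes, since several members are known targets of the factor that other members encode. These are RefSeq windows of build GRCh38.p14, covering the 250 bases before the start site, written 5′ to 3′ in the direction of the gene. Capitals mark each match to the decameric kB consensus, searched on both strands, and overlapping matches appear as 1 longer run. BIRC3 and MAP3K14 are the genes on which the set was chosen, and NFKB2, NFKBIA and TNFAIP3 are the feedback genes. For NFKB2 the second of 3 start sites is shown, which held the most matches, 3, against 0 at the first and 2 at the third.
BIRC3, chr11:102317234-102317483, plus strand: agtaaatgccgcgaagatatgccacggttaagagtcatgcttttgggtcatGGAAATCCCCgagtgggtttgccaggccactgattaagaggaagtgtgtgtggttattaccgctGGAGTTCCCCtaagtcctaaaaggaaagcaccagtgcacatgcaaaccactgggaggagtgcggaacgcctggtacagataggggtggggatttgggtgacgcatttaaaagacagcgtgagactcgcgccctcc
MAP3K14, chr17:45317021-45317270, minus strand: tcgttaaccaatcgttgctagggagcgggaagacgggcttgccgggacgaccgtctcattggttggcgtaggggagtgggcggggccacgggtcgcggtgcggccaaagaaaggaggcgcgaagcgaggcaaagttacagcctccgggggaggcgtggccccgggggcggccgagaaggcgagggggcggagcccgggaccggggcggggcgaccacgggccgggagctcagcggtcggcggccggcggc
NFKB2, chr10:102394328-102394577, plus strand: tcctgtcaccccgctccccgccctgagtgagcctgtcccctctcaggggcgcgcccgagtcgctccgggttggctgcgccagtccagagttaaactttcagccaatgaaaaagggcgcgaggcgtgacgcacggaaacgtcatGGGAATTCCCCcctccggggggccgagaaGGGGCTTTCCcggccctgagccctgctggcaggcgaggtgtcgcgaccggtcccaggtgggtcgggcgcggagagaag
NFKBIA, chr14:35404750-35404999, minus strand: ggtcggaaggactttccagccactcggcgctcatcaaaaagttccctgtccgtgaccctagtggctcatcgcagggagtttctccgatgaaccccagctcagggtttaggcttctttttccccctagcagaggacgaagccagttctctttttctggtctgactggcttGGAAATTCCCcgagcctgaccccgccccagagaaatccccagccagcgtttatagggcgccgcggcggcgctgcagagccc
TNFAIP3, chr6:137867009-137867258, plus strand: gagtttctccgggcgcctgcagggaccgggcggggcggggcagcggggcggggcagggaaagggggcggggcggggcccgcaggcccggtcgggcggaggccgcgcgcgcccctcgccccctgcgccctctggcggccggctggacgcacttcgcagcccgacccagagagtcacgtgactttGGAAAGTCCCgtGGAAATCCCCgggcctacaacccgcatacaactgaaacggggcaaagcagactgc

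The BIRC3 window held 2 matches, with first bases at -199 and -135 relative to the start site, and the TNFAIP3 window held 2, at -67 and -55. The TNFAIP3 gene of the deposited table starts before this RefSeq start site, at 137867188, so both matches lie within it. In NFKBIA the single match began at -81. The MAP3K14 window held none. Of the 10 genes, 9 had a promoter window in the RefSeq table, with 13 windows in all, and 6 genes had a match in at least 1 window: BIRC3, TRAF3, NFKB1, NFKB2, NFKBIA and TNFAIP3. The 300-base windows, which include the first 50 transcribed bases, held a match in 7 of 13 cases for these genes and in 11.3% of 35116 windows in the whole table. A match is a description of the letters and shows no binding. RELB had no window in the table.

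The levels per transcript length differed widely among the 10 genes. In UMUC3, BIRC2 was the highest, with 45 RPKM with BCUC-1 and 57.5 RPKM with vector. NFKBIA, BIRC3 and NFKB2 followed, then TRAF3, TRAF2, MAP3K14, NFKB1 and RELB, and TNFAIP3 was the lowest with 1.60 and 1.58 RPKM. In that order the libraries of BIRC3 and NFKB2 overlapped, as did those of TRAF2 and MAP3K14 and those of MAP3K14 and NFKB1. In T24T, BIRC2 was again the highest, with 21.1 RPKM with BCUC-1 and 20.1 RPKM with vector, and TNFAIP3 the lowest, with 0.747 and 0.702 RPKM. The place of BIRC3 differed, since it was the third highest of the 10 in UMUC3 and the third lowest in T24T. NFKB2 and NFKBIA overlapped in T24T, as did TRAF3 and NFKB1.

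**Figure D1:**
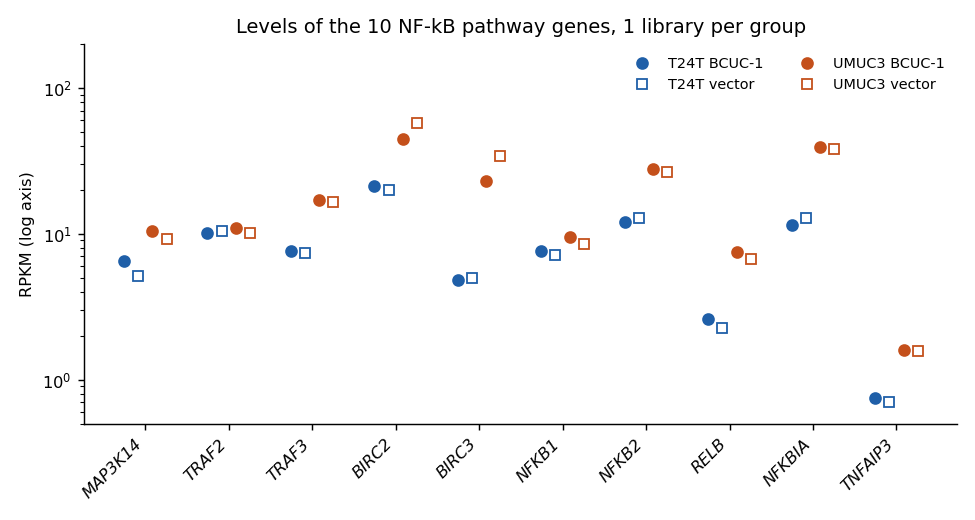
Level of each of the 10 genes in RPKM on a log axis, with 1 point per library (filled circles BCUC-1, open squares vector, blue T24T, orange UMUC3). For TRAF2 the points of the lines overlap between 10.2 and 10.9 RPKM, and for each other gene both T24T points lie below both UMUC3 points. How many of all genes separate in this way was not counted, and 29.6% of all genes tested were called lower in T24T.

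T24T was compared with UMUC3 over both treatments. T24T had lower levels of BIRC2, BIRC3, MAP3K14, TRAF3, NFKB1, NFKB2, RELB and NFKBIA, and no member was higher. TNFAIP3 was also called lower, which makes 9 of the 10 genes. However, TNFAIP3 passed the filter on low values only through UMUC3, so a low T24T value was built into its inclusion. The largest difference was at BIRC3, where T24T held 0.171 times the UMUC3 level, followed by NFKBIA at 0.313 times and RELB at 0.340 times. TRAF2, the adapter that brings the ubiquitin ligases to the complex, did not pass the test. Limma was fitted to log2(RPKM + 1) of 15415 genes with line and treatment as terms, and a gene was called at a Benjamini-Hochberg adjusted p of 0.05. Of all genes tested, 29.6% were called lower in T24T and 40.8% higher, so most genes differed between the lines. The median difference of the 10 members, TNFAIP3 included, was -1.06, against 0.10 for all genes tested. With the libraries scaled to equal medians, all genes had a median of -0.02, the called genes were 5274 higher and 5550 lower instead of 6289 and 4558, and the members stood at a median of -1.20 with the same count of 9 lower. The 2 libraries of a line come from different transfectants and stand in for replicates. With treatment as a term, these p-values rest on how far the BCUC-1 difference varied between the lines, with variance shared over genes. They do not measure the spread of replicate cultures, of which each group had none. In bulk RNA, a lower level cannot be told apart from fewer cells that express the gene.

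Among the genes that restrain MAP3K14, BIRC3 (chromosome 11, 102317450 to 102339403, plus strand) had 4.83 RPKM in T24T BCUC-1 and 4.98 RPKM in T24T vector, against 23.1 RPKM in UMUC3 BCUC-1 and 34.2 RPKM in UMUC3 vector. The lines did not overlap, with a log2 difference of -2.30 (SE 0.13, adjusted p = 1.24e-05 by limma). BIRC2, its paralogue and neighbour, differed by -1.26 (SE 0.10, adjusted p = 6.83e-05 by limma). Between the vector libraries, BIRC3 and BIRC2 stood at -2.56 and -1.47. Most genes within 5 megabases with at least 100 reads in the UMUC3 pair, a filter that favours UMUC3, were also lower in T24T vector. YAP1 and TMEM123, beside the pair, stood at -0.47 and -0.71. MSANTD4, KBTBD3 and RP11-677I18.3 were the exceptions, at 0.20, 0.34 and 0.01. A shared difference of the region was not tested. TRAF3 (chromosome 14, 102777476 to 102911500, plus strand), which recruits the kinase to the ligases, had 7.64 and 7.35 RPKM in T24T with BCUC-1 and vector, against 17.1 and 16.4 RPKM in UMUC3. The TRAF3 difference was -1.06 (SE 0.077, adjusted p = 3.97e-05 by limma). TRAF2 (chromosome 9, 136881912 to 136926607, plus strand) had 10.2 and 10.4 RPKM in T24T, against 10.9 and 10.2 RPKM in UMUC3. Its difference of -0.03 (SE 0.081) had an adjusted p of 0.744 by limma. The complex that restrains the kinase thus showed lower transcript levels in T24T for BIRC2, BIRC3 and TRAF3, with TRAF2 as the member that did not pass.

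MAP3K14 itself (chromosome 17, 45263121 to 45317040, minus strand) was at 6.47 RPKM in T24T BCUC-1 and 5.17 RPKM in T24T vector, against 10.5 and 9.17 RPKM in UMUC3 with BCUC-1 and vector. The kinase gene was lower in T24T by a log2 difference of -0.67 (SE 0.086, adjusted p = 0.000503 by limma). Without the UMUC3 BCUC-1 library the difference was -0.58 and its adjusted p by limma was 0.0559. With a library left out, here and below, the fit had the line as its only term.

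Both noncanonical subunits were lower in T24T. NFKB2 (chromosome 10, 102394110 to 102402529, plus strand) had 12.0 RPKM with BCUC-1 and 12.9 RPKM with vector in T24T, against 27.7 and 26.6 RPKM in UMUC3. RELB (chromosome 19, 45001430 to 45038198, plus strand), the partner of its processed product, had 2.60 and 2.25 RPKM in T24T, against 7.55 and 6.74 RPKM in UMUC3. Their log2 differences were -1.07 (SE 0.076) and -1.25 (SE 0.094), with no overlap between the lines. NFKB1 (chromosome 4, 102501329 to 102617302, plus strand), the canonical counterpart of NFKB2, differed less, with 7.58 and 7.11 RPKM in T24T against 9.57 and 8.50 RPKM in UMUC3. NFKB1 had a difference of -0.26 and an adjusted p of 0.0267 by limma. It missed the threshold when any 1 of T24T BCUC-1, T24T vector and UMUC3 BCUC-1 was left out, with adjusted p-values of 0.122, 0.214 and 0.0978, and with no filter on low values, at 0.0661.

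The feedback inhibitors were lower in T24T as well. NFKBIA (chromosome 14, 35401511 to 35404749, minus strand), the IkB protein that holds NF-kB in the cytoplasm, had 11.5 RPKM with BCUC-1 and 12.8 RPKM with vector in T24T, against 39.6 and 38.2 RPKM in UMUC3. Its difference was -1.60 (SE 0.079, adjusted p = 8.22e-06 by limma). TNFAIP3 (chromosome 6, 137867188 to 137883312, plus strand), the ubiquitin-editing enzyme also called A20, had a log2 difference of -0.59, given here without a test. TNFAIP3 was under 1 RPKM in both T24T libraries and passed the filter on low values through UMUC3, so a low T24T value was built into its inclusion. Its counts were 89 and 84 reads in T24T against 184 and 211 in UMUC3.

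The wider pathway was read from lists of 87 genes, of which 85 were in the table and 61 passed the filter. Of these, 22 were called higher and 20 lower in T24T, or 36.1% and 32.8% against 40.8% and 29.6% of all genes tested, with a median difference of 0.05. Of the 61, TNFRSF11A, MYD88, TRAF1, BCL2A1, CCL2 and CXCL3 were under 1 RPKM in both T24T libraries, and IL1R1 and TNFSF12 in both UMUC3 libraries. Those 8 genes passed the filter through the other line, so a difference was built into their inclusion. They are among the called genes, and their values are given below without a test. Of 12 tested receptors and adapters, 5 were called higher and 5 lower in T24T, or 41.7% each. TNFRSF11A, the receptor for RANK ligand, which feeds the noncanonical branch, had 0.457 RPKM with BCUC-1 and 0.394 RPKM with vector in T24T, against 7.16 and 6.74 RPKM in UMUC3, a log2 difference of -2.48. MYD88, the adapter of Toll-like and interleukin-1 receptors, stood at -1.32 and IL1R1, the interleukin-1 receptor, at 1.94. TNFRSF21, a death receptor, was higher in T24T by 1.43. On log2(RPKM + 1), 0 of 10 receptor and adapter genes above 1 RPKM in T24T and 0 of 11 in UMUC3 differed 1.2-fold between BCUC-1 and vector. Of the ligands, TNFSF12, the ligand of TNFRSF12A, was the only one of 9 in the table that passed the filter, with 3.59 and 3.44 RPKM in T24T and at most 1 read in each UMUC3 library.

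Among the other TRAF and inhibitor of apoptosis genes, 3 of 8 tested were higher in T24T and 2 lower. These are 37.5% and 25%, beside 40.8% and 29.6% of all genes tested. XIAP, a caspase inhibitor related to BIRC2 and BIRC3, was higher in T24T by 1.44 (SE 0.092), with 9.71 and 10.6 RPKM in T24T against 2.79 and 3.45 RPKM in UMUC3. XIAP therefore ran opposite to both of its relatives among the members. TRAF4 was higher in T24T by 1.17, whereas TRAF1, itself a known NF-kB target, differed by -0.66 and BIRC5, the mitotic regulator survivin, by -0.38. TRAF1 passed the filter only through UMUC3, so its low T24T value was built in. Of 8 tested IKK complex and upstream kinase genes, 1 was higher and 4 were lower, or 12.5% and 50%, beside the same 40.8% and 29.6%. With so few genes, nothing is read from the shares of these lists. Among the lower genes were the adapters of the kinase TAK1, with TAB3 at -0.75 and TAB2 at -0.70. The kinase gene TBK1 was higher at 0.37, and IKBKG, whose reads may be shared with a near-identical pseudogene, stood at -0.44. IKBKG and TBK1 missed the threshold when either T24T library was left out, with adjusted p-values of 0.0674 to 0.094.

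Among other Rel subunits and IkB proteins, 2 of 7 tested were higher in T24T and 2 lower, or 28.6% each, beside 40.8% and 29.6% of all genes. NFKBIZ, a nuclear IkB protein, was higher in T24T by 2.15 (SE 0.11), with 7.43 and 9.13 RPKM against 1.06 and 1.12 RPKM in UMUC3. REL was higher by 0.60, RELA stood at -0.51 and NFKBIB at -0.58. RELA, the main partner of NFKB1, missed the threshold without T24T BCUC-1 (adjusted p = 0.0576 by limma) and without T24T vector (adjusted p = 0.0649 by limma). Of 12 genes of ubiquitin editing and feedback, 4 were higher and 2 lower, or 33.3% and 16.7%, beside the same shares of all genes. TNIP1, which works with TNFAIP3, was lower at -1.83 (SE 0.074) and the deubiquitinase CYLD at -0.69, whereas ITCH, a ligase that also acts with TNFAIP3, was higher at 2.21 and RBCK1, of the linear ubiquitin ligase, at 0.64. Of 13 tested target genes, 6 were higher and 5 lower, among them BCL2A1, a survival gene, at -3.29, the plasminogen activator PLAU at -2.51, the chemokine CXCL1 at 1.76 and the chemokine CCL2 at -1.49. As shares, 46.2% of the tested targets were higher and 38.5% lower, beside the 40.8% and 29.6% of all genes. The 5 lower targets include BCL2A1, CCL2 and CXCL3, which passed the filter only through UMUC3, so nothing is read from these shares.

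**Figure D2:**
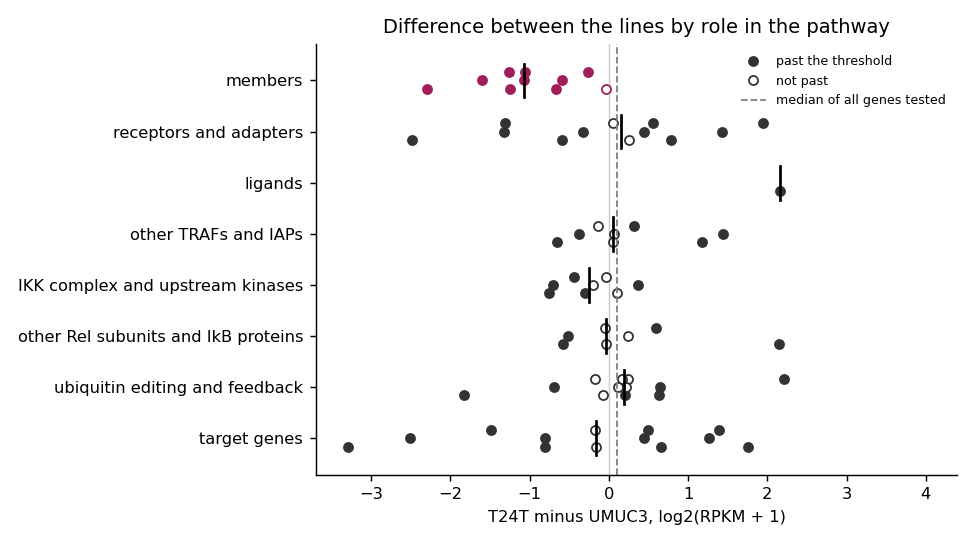
Log2 difference T24T minus UMUC3 on log2(RPKM + 1) for each tested gene, by role, with filled points past an adjusted p of 0.05, black bars at list medians and a dashed line at the median of all genes tested, 0.10. The members lie at or left of -0.03, while each other list with more than 1 gene has points on both sides of 0.

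BCUC-1 was compared with vector within each line, and the differences were small. In UMUC3, BIRC3 and BIRC2 were lower with BCUC-1, and the other 8 genes differed by less than 1.2-fold. In T24T, MAP3K14 was higher with BCUC-1 and the other 8 genes above 1 RPKM differed by less than 1.2-fold. On log2(RPKM + 1), 0 of 10 members were at least 1.2-fold higher in UMUC3 BCUC-1, against 8.40% of 14347 genes, and 2 were at least 1.2-fold lower, against 5.77%. In T24T, 1 of 9 members above 1 RPKM was at least 1.2-fold higher, against 2.99% of 14946 genes, and 0 were at least 1.2-fold lower, against 5.71%. The set was chosen on this contrast, so nothing is read from these counts. The median log2 difference of the members was 0.05 in T24T and 0.05 in UMUC3, against -0.02 and 0.03 for all genes above the floor. No member differed by more than 1.2-fold in both lines.

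BIRC3 had 3939 reads in UMUC3 BCUC-1 against 6811 reads in UMUC3 vector. This was 0.674 times the reads per 1000000 assigned (RPM), with an exact 95% interval of 0.648 to 0.701 that covers counting error only, as do all intervals here. The BIRC3 log2 difference of -0.55 was the largest among the members, and 3.09% of UMUC3 genes differed by more in either direction. The set was chosen on this BIRC3 value, so nothing is read from that share. In T24T, BIRC3 had 857 reads with BCUC-1 against 887 with vector, a ratio of 0.970 (0.882 to 1.07), so its interval there included 1.

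BIRC2 (chromosome 11, 102347211 to 102378670, plus strand) had 4632 reads in UMUC3 BCUC-1 against 6901 in UMUC3 vector, or 0.782 times the RPM (0.754 to 0.812) and a log2 difference of -0.35. The T24T libraries had 2258 reads with BCUC-1 against 2159 with vector, a ratio of 1.05 (0.989 to 1.11). BIRC2 and BIRC3, which encode closely related ligases, thus stood lower together in UMUC3 with BCUC-1. Of the 50-base stretches of the longest BIRC3 transcript in GENCODE 29, 0.214% also occur in BIRC2 transcripts, so exact shared sequence is small.

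MAP3K14 had 893 reads in T24T BCUC-1 against 717 in T24T vector, a ratio of 1.25 (1.13 to 1.38). The UMUC3 libraries had 1394 reads with BCUC-1 against 1422 with vector, and scaled to depth the ratio was 1.14 (1.06 to 1.23). The log2 differences were 0.27 in T24T and 0.17 in UMUC3, and 8.07% and 30.2% of the genes in those lines differed by more. Of genes whose paired libraries held 1000 or more reads together, a minimum chosen after seeing the data, 0.390% in T24T and 21.2% in UMUC3 differed by more. The set was chosen on the MAP3K14 values, so nothing is read from these shares. The antisense gene MAP3K14-AS1 overlaps 711 exonic bases of MAP3K14, which is 12.1% of its exonic length, and had 208 reads with BCUC-1 and 188 with vector in T24T, and 231 and 232 in UMUC3. Use of strand in the counting is not given in the sources used here, so reads of this stretch cannot be told apart.

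The other 7 members differed by less than 1.2-fold in both lines. In UMUC3 all 7 ratios were above 1, where 42.6% of all genes above the floor had a difference below 0. In T24T they lay on both sides of 1, beside 56.6% of genes below 0. With the UMUC3 trend on GC content removed, as described below, NFKB1 stood at 0.10. TRAF2, TRAF3, NFKB2, RELB, NFKBIA and TNFAIP3 then stood between -0.10 and -0.03, so nothing is read from the shared direction. RELB had 186 reads in T24T BCUC-1 against 162 in T24T vector, a ratio of 1.15 (0.929 to 1.43), and in UMUC3 a ratio of 1.12 (0.992 to 1.27). NFKB1 had ratios of 1.07 (0.980 to 1.16) in T24T and 1.13 (1.04 to 1.21) in UMUC3. NFKBIA had 644 reads in T24T BCUC-1 against 722 in T24T vector, a ratio of 0.895 (0.804 to 0.997), and in UMUC3 a ratio of 1.04 (0.978 to 1.10). Of these 3 genes, NFKB1 had an interval above 1 in UMUC3 and NFKBIA one below 1 in T24T. The ratios of TRAF2, TRAF3, NFKB2 and TNFAIP3 lay between 0.931 and 1.07 over both lines, and each interval included 1.

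**Figure D3:**
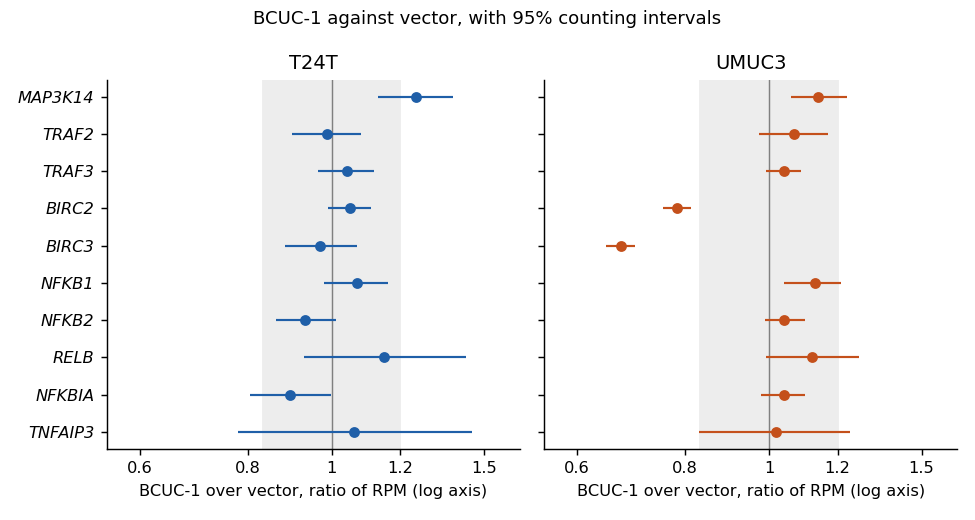
Ratio of RPM, BCUC-1 over vector, for the 10 genes in T24T (left) and UMUC3 (right), on a log axis with exact 95% counting intervals, and with the range within 1.2-fold shaded grey. MAP3K14 in T24T (1.25) and BIRC2 (0.782) and BIRC3 (0.674) in UMUC3 lie outside the shading.

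Base composition moved with the UMUC3 differences. From the lowest to the highest of 10 equal groups of UMUC3 genes by GC content, the median log2 difference ran from -0.13 to 0.17, and Spearman's rho was 0.568 across 11601 genes, which are not independent. In T24T rho was 0.0232. BIRC3 and BIRC2 have the lowest GC content of the 10 members, at 34.8% and 38% of their longest transcripts. With the UMUC3 trend on GC content removed, BIRC3 stood at -0.39, BIRC2 at -0.23, which is within 1.2-fold, and MAP3K14 at 0.05. The members in UMUC3 then had 2 values above and 8 below 0, in place of 8 above and 2 below. Over all UMUC3 genes, the counts at least 1.2-fold higher and lower were 1205 and 828 as deposited, 410 and 469 with the trend removed, and 917 and 1120 with the libraries scaled to equal medians. In T24T, removal left MAP3K14 at 0.29 and BIRC3 at -0.00.

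BIRC3 and BIRC2 lie next to each other on chromosome 11, 7807 bases apart and on the same strand, so their neighbours were examined too. This comparison was chosen after the values of both genes were seen. Within 5 megabases of the BIRC3 start, 18 other genes had at least 100 reads in the UMUC3 pair. Of these, 14 were lower in UMUC3 BCUC-1 by any amount, beside 42.6% of all UMUC3 genes reaching 1 RPKM in either library. Their median log2 difference was -0.09, with a range of -0.27 to 0.13, against a median of 0.03 for all those genes. The neighbours were filtered on reads instead of RPKM, and the GC trend was not removed from their values. On log2(RPKM + 1), 1 neighbour, RP11-690D19.3, was at least 1.2-fold lower, with 74 reads with BCUC-1 against 132 with vector. By the ratio of levels it stood at 0.654, and ARHGAP42 at 0.805 and CEP126 at 0.816 were also at least 1.2-fold lower. On either side of the pair, YAP1, the Hippo pathway coactivator, stood at -0.19 with 6524 reads against 8694, and TMEM123 at -0.18 with 11044 reads against 14631. MMP1, which lies further along, stood at 0.13. On log2(RPKM + 1) both members had the lowest values in this stretch, whereas by the ratio of levels RP11-690D19.3 was lower than either. In T24T the same neighbours had a median of -0.01.

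**Figure D4:**
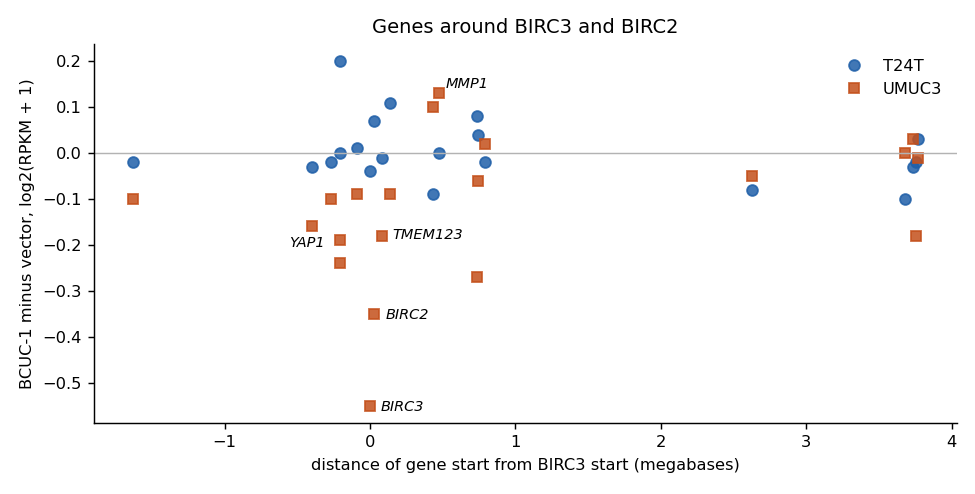
Log2 difference BCUC-1 minus vector on log2(RPKM + 1), by distance of each gene's start from that of BIRC3 in megabases (blue circles T24T, orange squares UMUC3). BIRC3 at -0.55 and BIRC2 at -0.35 are the lowest UMUC3 points, and the T24T points lie between -0.10 and 0.20.

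The wider lists were read in the same way. Of 55 such genes above 1 RPKM in T24T, 0 were at least 1.2-fold higher with BCUC-1 and 2 lower, beside 2.99% and 5.71% of all genes. Of 59 in UMUC3, 1 was higher and 2 lower, beside 8.40% and 5.77%. BCL3, a nuclear IkB protein that binds dimers of the NFKB1 and NFKB2 products, had 156 reads in T24T BCUC-1 against 215 in T24T vector, a log2 difference of -0.32. In UMUC3 it had 225 reads with BCUC-1 against 178 with vector, a difference of 0.40, so the lines went opposite ways. With the GC trend removed, BCL3 stood at 0.22 in UMUC3, within 1.2-fold, and no wider gene named here was then at least 1.2-fold higher there. NFKBIZ stood at -0.26 in T24T and -0.04 in UMUC3. CXCL1 had a difference of 0.25 in T24T and of -0.28 in UMUC3, and CXCL8, encoding interleukin-8, of 0.24 and -0.11. With the GC trend removed, CXCL1 stood at -0.30 and CXCL8 at 0.05 in UMUC3, so the sign of CXCL8 there was not stable. RNF11, a partner of TNFAIP3, stood at -0.28 in UMUC3 and -0.01 in T24T. With the GC trend removed it stood at -0.25 in UMUC3, just within 1.2-fold. RELA stood at 0.24 in UMUC3 and at 0.13 with the GC trend removed.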

How the data were processed

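Total RNA of 4 cultures, 1 library per group, was sequenced after standard Illumina library preparation, per the labels. The table deposited by the authors gives RPKM per gene and library. It also holds a column Length, an other unit per the file headers, that enters the RPKM values. The submitters' processing notes name Bowtie 0.12.2, without its role. Not given in the sources used here are the counter, the build and the annotation. Of 22720 symbols with a single GENCODE 29 gene, 96.8% share its start or end, so positions are given on GRCh38. Reads and depths were recovered from RPKM and length, whose product came in whole steps for 100% of genes (tolerance 0.001 reads).

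For T24T against UMUC3, limma 3.58.1 (R 4.3.3, trended variance) was fitted to log2(RPKM + 1) of genes reaching 1 RPKM in 2 libraries. Line and treatment were its terms and 1 residual degree of freedom remained. BCUC-1 was compared with vector as a difference of log2(RPKM + 1), at 1.2-fold, for genes reaching 1 RPKM in either library. Fold changes on this scale understate those of low genes. Ratios of RPM carry exact Clopper-Pearson 95% intervals, which treat reads as independent molecules although no molecular identifiers were used. GC content came from the longest GENCODE 29 transcript, for 80.9% of UMUC3 genes above the floor. Its trend was removed by subtracting the median change in 20 GC bins.

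The members, gene lists and settings were chosen with earlier results of these data known. Named genes were all members and, of each wider list, up to 4 with the largest called line difference and up to 2 with the largest BCUC-1 difference in each line. BCUC-1 was not tested over both lines, because the members were chosen on it. Whether its effect differs between lines was not testable with 1 library per group.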

Additional observations from a re-analysis of the deposited data

Results flagged for a closer look

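For 4 of the 10 genes, BCUC-1 and vector differed in opposite directions in the lines, which 1 library per group cannot test, so the difference was not tested. How many of all genes did so was not counted, so nothing is read from this count. The counting intervals included 1 for TRAF2 and NFKB2 in both lines, for NFKBIA in UMUC3 and for BIRC2 in T24T. For BIRC2 the log2 difference in T24T minus that in UMUC3 was 0.41, with 0.07 in T24T and -0.35 in UMUC3. For NFKBIA it was -0.20, from -0.15 and 0.05. For NFKB2 it was -0.15, from -0.10 and 0.06, and for TRAF2 -0.10, from -0.02 and 0.09. With the trend on GC content removed, NFKBIA, NFKB2 and TRAF2 stood at -0.03, -0.10 and -0.07 in UMUC3. In T24T they then stood at -0.14, -0.07 and 0.01. TRAF3 and RELB then had opposite signs, at 0.06 and 0.17 in T24T and at -0.05 and -0.04 in UMUC3.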

How the results depend on the processing

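The count of genes called between the lines was 10847 and fell to 6780 at a floor of 5 RPKM, where 8830 genes instead of 15415 were tested. It was 9908 to 11185 under the other settings that kept all libraries. Leaving out 1 library, which also required dropping the treatment term, gave 7797 to 10296 genes and 7 to 9 members. Under the settings with all libraries, 8 or 9 members were called, none of them higher in T24T. TRAF2 ranged from -0.07 to 0.01 with 1 library left out, reversing without UMUC3 BCUC-1 (adjusted p = 0.839 by limma), and was not called in any setting. Of the members' BCUC-1 values, 7 in UMUC3 moved beyond their counting interval, all with the GC trend removed, and the count of members at least 1.2-fold different in UMUC3 was then 1 instead of 2. In T24T that count was 1 under every setting. A minimum of 1000 reads in the pair was chosen after seeing the data. Depth limits TNFAIP3 and RELB most, whose ratios in T24T had intervals of 0.780 to 1.45 and 0.929 to 1.43. No paired analysis was possible because the labels give no replicate numbers and each group has 1 library. Treatment was a term of the line contrast, and without it 10881 genes and 9 members were called.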

Other observations

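Some known NF-kB targets and pathway genes were read almost only in 1 line, and were picked out after their values were seen. PTGS2, the inducible cyclooxygenase, had 79 reads in T24T BCUC-1 and 85 in T24T vector, and 0 in both UMUC3 libraries, where a count of 0 allows up to 3 reads per library. ICAM1, an adhesion molecule, had 53 and 37 reads in T24T, against 0 and 1 in UMUC3. IKBKE, an IKK-related kinase gene, had 1 and 4 reads in T24T, against 78 and 67 in UMUC3. All 3 stayed under 1 RPKM in every library and were outside the test.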
